A study of Homo sapiens with 12 samples.

Results

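Keratins are the intermediate filament proteins of epithelial cells, and their genes are described here in TPC-1 and K1, a pair of established human lines labelled as papillary thyroid cancer. A row of the deposited gene table was taken as a keratin when its symbol was KRT followed by a number and at most a letter from A to C, which leaves out keratin-associated proteins and pseudogenes. This gave 55 of the 61806 genes in the table, 29 of type I and 26 of type II. Cells received either a negative control siRNA (genotype labelled WT) or TRIM35 siRNA (labelled TRIM35 knockdown), and RNA was taken 24 h later. TRIM35 is a ubiquitin ligase with a tripartite motif. Each of the 4 groups (TPC-1 control siRNA, TPC-1 TRIM35 siRNA, K1 control siRNA and K1 TRIM35 siRNA) had 3 libraries. The labels do not state whether the 3 libraries of a group came from separate cultures, and p-values reflect the scatter among libraries alone, some or all of which may be technical. The title of the third TPC-1 control library names the line as TPC-3, whereas its other labels give TPC-1, and results for the lines are therefore also given without it.

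A keratin filament is built from pairs of a type I and a type II chain, so a cell that makes filaments expresses members of both types. Type I genes lie in a cluster on chromosome 17 and type II genes in a cluster on chromosome 12, except that KRT18, a type I gene by sequence, sits at the end of the chromosome 12 cluster beside its partner KRT8. Simple epithelia, among them thyroid follicular epithelium, are known for KRT8 and KRT18 with KRT7 and KRT19, stratified epithelia for KRT5 and KRT14 in the basal layer and other pairs above it, and the hair shaft for its own hard keratins. KRT19 is widely used as an immunostaining marker of papillary thyroid carcinoma.

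Library totals ran from 16705044 to 22928861 counts, and the 55 keratins together took 5971 to 13191 counts per library, or 0.0356% to 0.0615% of all counts. TRIM35 itself measured 2.86 to 3.06 FPKM (fragments per kilobase of exon, scaled to the library's summed counts) in TPC-1 control libraries and 2.34 to 2.58 in TPC-1 siRNA libraries. In K1 it measured 1.47 to 1.85 FPKM in control and 1.20 to 1.53 in siRNA libraries. It did not pass the edgeR quasi-likelihood test in either line (log2 fold change -0.24, SE 0.16, in TPC-1 and -0.19, SE 0.17, in K1, adjusted p = 1 in both), so a decrease of the target was not shown by this test. Of the defining thyroid genes, the transcription factor genes PAX8 and FOXE1 were present in both lines (19.6 and 1.49 FPKM in TPC-1 control, 115 and 12.9 FPKM in K1 control), NKX2-1 had 0 counts in both control groups, and TG, TSHR and SLC5A5 did not exceed 0.19 FPKM in any control library. The epithelial cadherin gene CDH1 had 0 counts in the TPC-1 control libraries and 3 in those of K1.

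TPC-1 and K1 differed in the level of several keratins, while KRT18, KRT8, KRT10, KRT15 and KRT80 exceeded 1 FPKM in every control library of both. KRT81, a keratin of the hair shaft, was the most abundant keratin message in TPC-1 and was near the floor in K1, whereas K1 carried more KRT8, KRT19, KRT15, KRT4 and KRT79. KRT18 was high in both lines, at 41.0 ± 3.81 FPKM in TPC-1 control and 34.8 ± 6.97 FPKM in K1 control libraries (SD, n = 3). No tested keratin passed the test for TRIM35 siRNA in either line. Of the 55 genes, 12 reached a mean of 1 FPKM in at least 1 group (5 of type I and 7 of type II), 5 stayed under 1 FPKM with 50 or more counts in all, 19 had 1 to 49 counts in all, and 19 had no count in any of the 12 libraries. A count of 0 leaves room for up to 3 counts in a library, which is a limit from counting alone. The TPC-1 control libraries had counts for 15 to 17 keratins and the K1 control libraries for 24 to 25. Of the keratins detected in 1 line alone, 14 were detected in K1 and 0 in TPC-1. Detection here means at least 1 count in any library of the line, so genes with very few counts are included. The matching share of all genes was not computed. The libraries of K1 also had more genes with a count overall (25015 to 28045, against 22526 to 24335 in TPC-1), and its part in the keratin count was not tested.

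**Figure D1:**
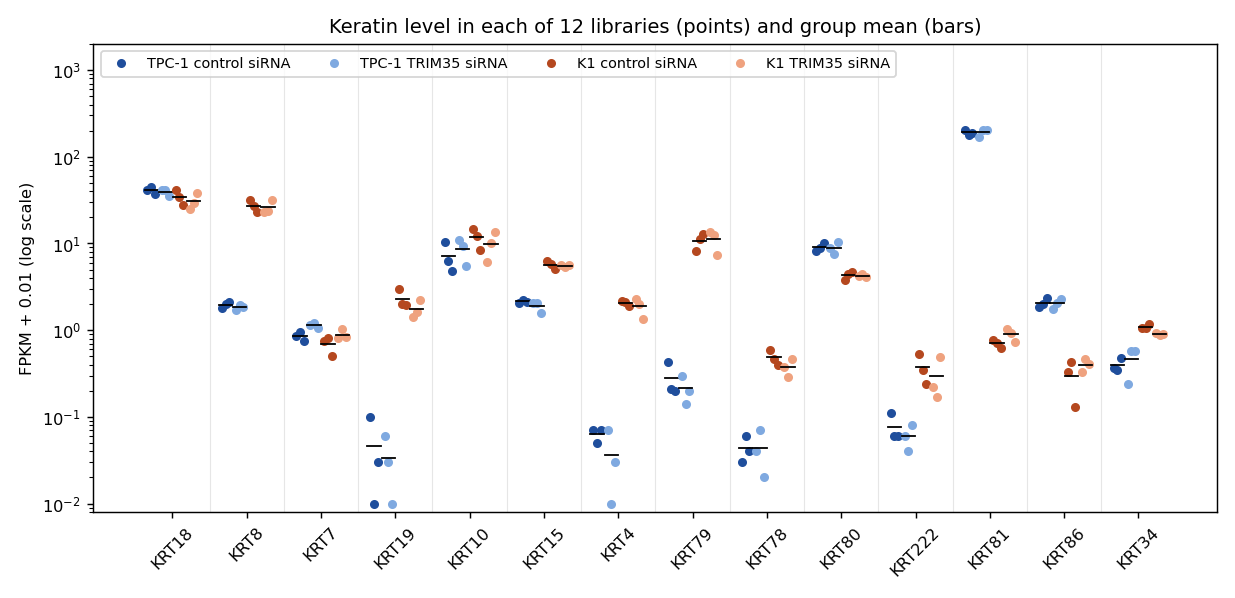
Level of the 14 tested keratins in each of the 12 libraries, on a log axis of FPKM + 0.01; points are libraries, coloured by line and siRNA, and bars are group means (n = 3). KRT81 sits near 200 FPKM in all TPC-1 libraries and near 1 FPKM in all K1 libraries, KRT18 overlaps between the lines, and the control and TRIM35 siRNA points of a line overlap for most genes.

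Among the simple epithelial keratins, KRT18 was abundant in both lines and its partner KRT8 mainly in K1. KRT18 (ENSG00000111057; hg38, chromosome 12, 52948871 to 52952906, plus strand) encodes the type I chain that pairs with KRT8. It measured 41.3, 44.6 and 37.0 FPKM in the TPC-1 control libraries and 41.9, 34.4 and 28.0 FPKM in the K1 control libraries. With TRIM35 siRNA the values were 41.6, 41.4 and 35.2 FPKM in TPC-1 and 24.7, 29.2 and 38.6 FPKM in K1. The lines overlapped in both conditions. By edgeR the K1 against TPC-1 log2 fold change was -0.32 (SE 0.20, 95% interval -0.74 to 0.09, adjusted p = 0.152) in control and -0.43 (SE 0.20, adjusted p = 0.0625) in siRNA libraries. This gene passed the threshold in the control comparison when the first K1 control library was left out (-0.52), and in 6 of the alternatives for the siRNA libraries (-0.69 to -0.43).

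KRT8 (ENSG00000170421; chromosome 12, 52897187 to 52949954, minus strand), the type II partner of KRT18, measured 1.78, 1.98 and 2.08 FPKM in TPC-1 control and 31.6, 26.9 and 23.0 FPKM in K1 control libraries. In the siRNA libraries it measured 1.72, 1.93 and 1.83 FPKM in TPC-1 and 23.0, 23.8 and 31.4 FPKM in K1. Every K1 library lay above every TPC-1 library by a wide margin. KRT8 was higher in K1 by a log2 fold change of 3.71 (SE 0.19, edgeR adjusted p = 1.24e-10) in control and 3.75 (SE 0.19, adjusted p = 1.07e-10) in siRNA libraries. These are bulk RNA measurements, in which fewer cells that express a gene and less RNA per cell cannot be told apart.

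The ratio of KRT8 to KRT18 level was 0.0479 ± 0.0072 in TPC-1 control and 0.785 ± 0.0339 in K1 control libraries (SD, n = 3), a description with no test. The ranges were 0.0431 to 0.0562 and 0.753 to 0.821. With siRNA the ratios were 0.0467 ± 0.0053 and 0.852 ± 0.0676. The size of this ratio depends on the length used. The deposited exonic size of KRT8 is 6881 bases against 2126 for its principal transcript in GENCODE 29 (3.24 times), and that of KRT18 is 3069 against 1562 (1.96 times). On principal transcript length the ratio was 0.0789 in TPC-1 and 1.29 in K1 control libraries, so the order of the lines was kept and the K1 ratio moved from under 1 to over 1.

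Reads of KRT8 and KRT18 are uncertain at their shared edge, since the exons of the pair overlap by 525 bases on opposite strands (7.63% of the exonic bases of KRT8 and 16.3% of those of KRT18) and the strandedness of the libraries is not given in the sources used here. Processed pseudogenes of KRT8 also collected reads. Its 51 pseudogene rows held 30.8% of the summed KRT8 and pseudogene counts in TPC-1 and 4.46% in K1, and with them added to KRT8 the K1 against TPC-1 log2 fold change was 3.29 in control and 3.24 in siRNA libraries. For KRT18, pseudogene rows held 0.641% in TPC-1 and 0.94% in K1.

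KRT7, the simple epithelial type II keratin of ducts and glands, was low in both lines. It measured 0.84, 0.95 and 0.74 FPKM in TPC-1 control, 0.75, 0.80 and 0.49 FPKM in K1 control, 1.15, 1.19 and 1.04 FPKM in TPC-1 siRNA and 0.81, 1.01 and 0.82 FPKM in K1 siRNA libraries. The lines overlapped in the control libraries and did not in the siRNA libraries, and neither comparison passed the edgeR test (log2 fold change -0.38, adjusted p = 0.155, and -0.45, adjusted p = 0.0885). KRT7 shares 282 exonic bases with its antisense gene KRT7-AS, so its counts are uncertain to that extent.

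KRT19 (ENSG00000171345; chromosome 17, 41523617 to 41528308, minus strand), the smallest type I keratin, was a K1 message. Its counts were 4, 0 and 1 in the TPC-1 control libraries (0.09, 0 and 0.02 FPKM) and 160, 104 and 76 in the K1 control libraries (2.99, 1.98 and 1.95 FPKM). All 6 K1 libraries, which reached 1.40 to 2.99 FPKM, lay above all TPC-1 libraries. The log2 fold change in control libraries was 5.70 (SE 0.56, edgeR adjusted p = 2.46e-07), and it was 7.24 without the first TPC-1 control library, which holds 4 of the 5 counts. In siRNA libraries TPC-1 had 3 counts in all against 230 in K1, a depth-scaled ratio of 83.7 (95% counting interval 28.3 to 409). The remaining simple epithelial member, KRT20 of the gut and urothelium, had 4 counts in all, each in K1.

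The basal keratins of stratified epithelia were represented by KRT15 alone. KRT15 (ENSG00000171346; chromosome 17, 41513745 to 41522529, minus strand), a type I chain of basal cells, measured 2.06, 2.24 and 2.12 FPKM in TPC-1 control and 6.22, 5.77 and 5.11 FPKM in K1 control libraries. With siRNA it measured 2.06, 2.06 and 1.55 FPKM in TPC-1 and 5.62, 5.35 and 5.67 FPKM in K1. No library of K1 overlapped with TPC-1. On the log2 scale the difference was 1.32 (SE 0.15, edgeR adjusted p = 1.18e-06) in control and 1.46 (SE 0.15, adjusted p = 3.93e-07) in siRNA libraries. The classical basal pair was close to absent, with 10 counts for KRT5 and 1 count for KRT14 over the 12 libraries.

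Keratins of the suprabasal layers were KRT10 and KRT4. KRT10 (ENSG00000186395; chromosome 17, 40818117 to 40822614, minus strand), the type I chain of cornifying epidermis, measured 10.3, 6.30 and 4.75 FPKM in TPC-1 control and 14.7, 12.1 and 8.41 FPKM in K1 control libraries. In the siRNA libraries it was measured at 10.9, 9.26 and 5.44 FPKM in TPC-1 and 6.15, 10.2 and 13.6 FPKM in K1. The spread within each group was wide, and the lines overlapped in both conditions. By edgeR the log2 fold change was 0.64 (SE 0.34, edgeR adjusted p = 0.101) in control and 0.15 (SE 0.33, adjusted p = 0.696) in siRNA libraries. In the control comparison it passed in 4 of 21 alternatives (0.66 to 1.01), among them those without the first TPC-1 control library (1.01) and without the third K1 control library (0.85). KRT1, the type II partner of KRT10 in epidermis, had 0 counts in all libraries, and KRT10 overlaps its antisense gene KRT10-AS1 by 56 exonic bases.

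KRT4 (ENSG00000170477; chromosome 12, 52806549 to 52814116, minus strand), the type II chain of mucosal suprabasal cells, had 3, 2 and 3 counts in TPC-1 control libraries (0.06, 0.04 and 0.06 FPKM). In K1 control libraries it had 143, 136 and 90 counts (2.17, 2.10 and 1.87 FPKM), and the lines did not overlap. After TRIM35 siRNA the values were 0.06, 0 and 0.02 FPKM in TPC-1 and 2.30, 1.98 and 1.35 FPKM in K1. K1 against TPC-1, the log2 fold change was 5.18 (SE 0.40, edgeR adjusted p = 1.47e-08) in control and 6.14 (SE 0.45, adjusted p = 7.31e-09) in siRNA libraries, and the latter was 7.39 without the first TPC-1 siRNA library. KRT13, the type I partner of KRT4 in mucosa, had 14 counts over the 12 libraries.

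Of the 6 remaining epithelial keratins outside these classes, KRT79 and KRT80 were expressed in opposite directions. KRT79 (ENSG00000185640; chromosome 12, 52821408 to 52834311, minus strand), a type II keratin known from the hair follicle canal and sebaceous duct, measured 0.42, 0.20 and 0.19 FPKM in TPC-1 control and 8.08, 11.3 and 13.0 FPKM in K1 control libraries. With siRNA it measured 0.29, 0.13 and 0.19 FPKM in TPC-1 and 13.7, 12.7 and 7.34 FPKM in K1. Every K1 library lay far above every TPC-1 library. KRT79 was higher in K1 by a log2 fold change of 5.2 (SE 0.31, edgeR adjusted p = 5.66e-10) in control and 5.66 (SE 0.32, adjusted p = 2.69e-10) in siRNA libraries.

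KRT80 (ENSG00000167767; chromosome 12, 52168996 to 52192014, minus strand), a type II keratin that lies near desmosomes in many epithelia, measured 8.18, 8.89 and 10.2 FPKM in TPC-1 control and 3.78, 4.46 and 4.62 FPKM in K1 control libraries. In the siRNA libraries it was measured at 8.75, 7.53 and 10.5 FPKM in TPC-1 and 4.17, 4.41 and 4.06 FPKM in K1. All K1 libraries lay below all TPC-1 libraries. On the log2 scale the difference was -1.19 (SE 0.14, edgeR adjusted p = 1.86e-06) in control and -1.18 (SE 0.14, adjusted p = 2.11e-06) in siRNA libraries.

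KRT78 and KRT222 were under 1 FPKM in every library and were higher in K1. KRT78, a type II keratin, had 1, 3 and 2 counts in TPC-1 control and 43, 34 and 21 counts in K1 control libraries (log2 fold change 3.66, SE 0.54, edgeR adjusted p = 2.02e-05; 3.24 in siRNA libraries, and 3.84 there without the second TPC-1 siRNA library). KRT222, a keratin-like type I gene, had 6, 3 and 3 counts in TPC-1 control and 38, 24 and 12 counts in K1 control libraries (2.29, SE 0.58, edgeR adjusted p = 0.00250; 2.35 in siRNA libraries, and 1.67 there without the third K1 siRNA library). The exons of KRT222 share 1092 bases, or 34.5% of its exonic length, with the gene AC073508.2 on the same strand, so its counts are uncertain. KRT23 and KRT24 of the same class had 28 counts, each in K1, and 0 counts.

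The hair shaft keratins gave the largest difference. KRT81 and KRT86 are neighbouring type II hair keratins of the hair cortex and are close relatives. In GENCODE 29 transcripts (GRCh38), both coding sequences (1515 and 1458 bases) share an identical run of 605 bases from coding base 61 on. Of all stretches of 50 bases in the KRT81 transcript, 38.4% also occur in KRT86, and 33.3% of those in KRT86 also occur in KRT81.

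KRT81 (ENSG00000205426; chromosome 12, 52285913 to 52291534, minus strand) measured 205, 178.5 and 189 FPKM in the TPC-1 control libraries, from 7309, 6186 and 6649 counts. In the K1 control libraries it measured 0.77, 0.71 and 0.62 FPKM, from 34, 31 and 20 counts. After TRIM35 siRNA the values were 168, 205 and 202 FPKM in TPC-1 and 1.02, 0.91 and 0.73 FPKM in K1. The TPC-1 libraries were high without exception, and the K1 libraries held a small but counted level. By edgeR the log2 fold change was -8.16 (SE 0.19, 95% interval -8.56 to -7.77, edgeR adjusted p = 1.94e-14) in control and -7.86 (SE 0.18, adjusted p = 2.05e-14) in siRNA libraries. Of the 17447 genes tested, 65 had a more negative difference between the control groups. By FPKM, KRT81 ranked between 141 and 176 among all genes in the TPC-1 control libraries and between 12762 and 14560 in those of K1. It made up 72.5% to 75.9% of the summed keratin level in TPC-1 control and 0.662% to 0.689% in K1 control libraries.

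KRT86 (ENSG00000170442; chromosome 12, 52249300 to 52309163, plus strand) measured 1.85, 2.00 and 2.31 FPKM in TPC-1 control and 0.32, 0.42 and 0.12 FPKM in K1 control libraries. With siRNA it measured 1.73, 2.07 and 2.28 FPKM in TPC-1 and 0.32, 0.45 and 0.40 FPKM in K1. All K1 libraries lay below all TPC-1 libraries. K1 against TPC-1, the log2 fold change was -2.86 (SE 0.32, edgeR adjusted p = 1.11e-06) in control and -2.46 (SE 0.31, adjusted p = 4.52e-06) in siRNA libraries. KRT81 had 65.2 to 88.1 times the counts of KRT86 in TPC-1 control and 1.35 to 4 times in K1 control libraries. The part of reads shared with KRT81 in the KRT86 counts was not tested, so the KRT86 difference is uncertain. The span of KRT81 also lies within that of KRT86 on the opposite strand, with 0 shared exonic bases.

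KRT34 (ENSG00000131737; chromosome 17, 41377669 to 41382306, minus strand), a type I hair keratin, was the only type I hair keratin that reached 1 FPKM, and it did so in K1. It measured 0.36, 0.34 and 0.47 FPKM in TPC-1 control and 1.04, 1.06 and 1.17 FPKM in K1 control libraries, with no overlap. In the siRNA libraries it was measured at 0.23, 0.57 and 0.57 FPKM in TPC-1 and 0.91, 0.87 and 0.89 FPKM in K1, again with no overlap. On the log2 scale the difference was 1.37 (SE 0.36, edgeR adjusted p = 0.00341) in control and 0.85 (SE 0.36, adjusted p = 0.0453) in siRNA libraries. The second call was lost in 13 of 21 alternatives (0.51 to 0.89), the lowest value being that without the first TPC-1 siRNA library. KRT81, the major hair keratin of TPC-1, thus had no abundant type I hair keratin beside it: the most abundant in TPC-1 was KRT34, at 0.39 ± 0.07 FPKM in control libraries.

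The other 14 hair shaft keratins were too low for a test, and KRT83, KRT82 and KRT33B among them had counts mainly in K1. KRT83, a type II cortex keratin, had 33 counts in K1 control and 0 in TPC-1 control libraries. That is 9.68-fold higher in K1 if the group total in TPC-1 is set to 3 counts, with no allowance for error in the K1 count. KRT82, a type II cuticle keratin, had 25 counts against 1, a ratio of 22 (95% counting interval 3.60 to 903). KRT33B, a type I cortex keratin, had 30 counts against 6, a ratio of 4.4 (1.80 to 12.9). In the siRNA libraries KRT83 was 7.64-fold and KRT82 10.2-fold higher in K1 on the same basis, and the KRT33B ratio was 4.37 (1.59 to 14.9). These intervals cover counting error only. Of the 17 hair shaft keratins, 7 had no count in any library.

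The remaining classes were nearly silent. The 5 stress and barrier keratins, KRT6A, KRT6B, KRT6C, KRT16 and KRT17, which are induced in wounded or hyperproliferative epidermis, had 10 counts in all over the 12 libraries, and no group mean exceeded 0.023 FPKM. The 9 keratins of the inner root sheath and companion layer had 33 counts in all, 21 of them from KRT75, whose 21 counts all came from K1 (14 against 0 in the siRNA libraries, at least 5.09-fold higher). KRT23, a type I keratin of the class of other keratins, had 20 against 0 counts in the siRNA libraries, 7.28-fold higher in K1 on that basis.

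**Figure D2:**
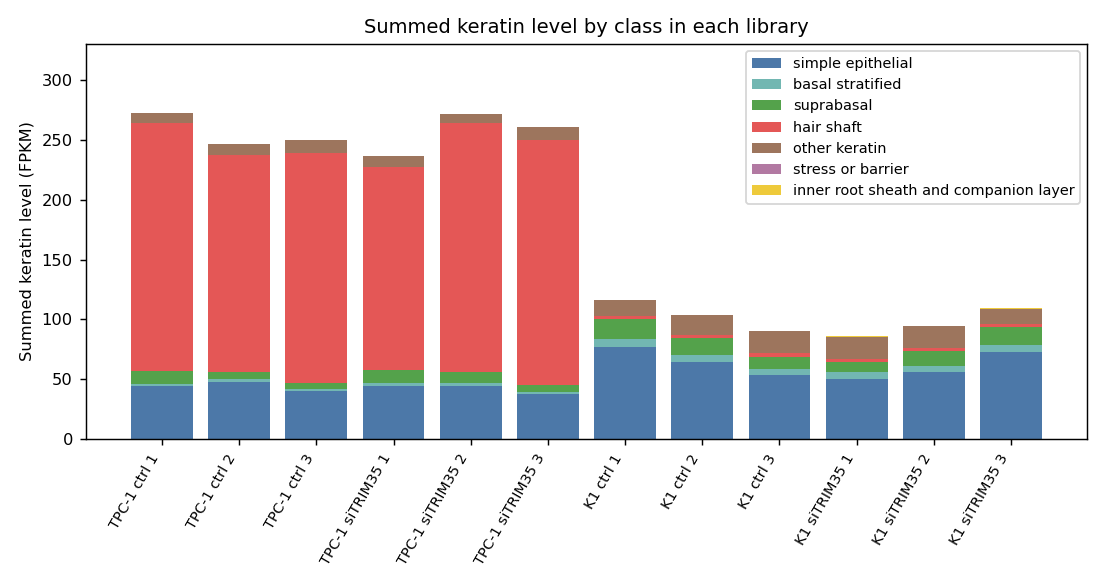
Summed FPKM of the 55 keratins in each library, stacked by class. Hair shaft keratins, which are almost all KRT81, fill 169.92 to 207.87 FPKM of each TPC-1 bar and 2.72 to 3.13 FPKM of each K1 bar, while simple epithelial keratins fill 38.06 to 47.55 FPKM in TPC-1 and 49.98 to 77.21 FPKM in K1.

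Across the tested keratins, 8 were higher and 3 were lower in K1 than in TPC-1 control libraries, so 11 of 14 were called, against 67.9% of all 17447 genes tested (35.8% higher and 32.1% lower). A share of 11 in 14 is near that background, and the count by itself is no result about keratins. The median log2 fold change of the 14 was 1.34, against 0.06 for all tested genes. These 14 are the keratins that passed a filter on low counts and are not all members: 41 were not tested, and KRT19, KRT4, KRT78 and KRT222 had at most 6 counts in any TPC-1 library and passed through their K1 counts. In the siRNA libraries, which are other libraries of the same lines, 11 of 14 were again called (8 higher and 3 lower), against 68.3% of all genes (35.9% higher and 32.4% lower), and the median was 1.15. Leaving out the third TPC-1 control library gave 13 calls in each comparison (of 16 keratins then tested in the control comparison), with KRT81 at -8.17, KRT8 at 3.76, KRT19 at 5.45, KRT15 at 1.31 and KRT80 at -1.09 in the control comparison; the KRT34 call for the siRNA libraries was lost (0.82) and KRT18 was called there (-0.45). On the log2(FPKM + 1) scale, which compresses low values, the control differences were smaller for KRT4 (1.53), KRT19 (1.66), KRT79 (3.20), KRT34 (0.59), KRT86 (-1.25), KRT8 (3.25) and KRT81 (-6.82), and these 7 calls were kept.

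**Figure D3:**
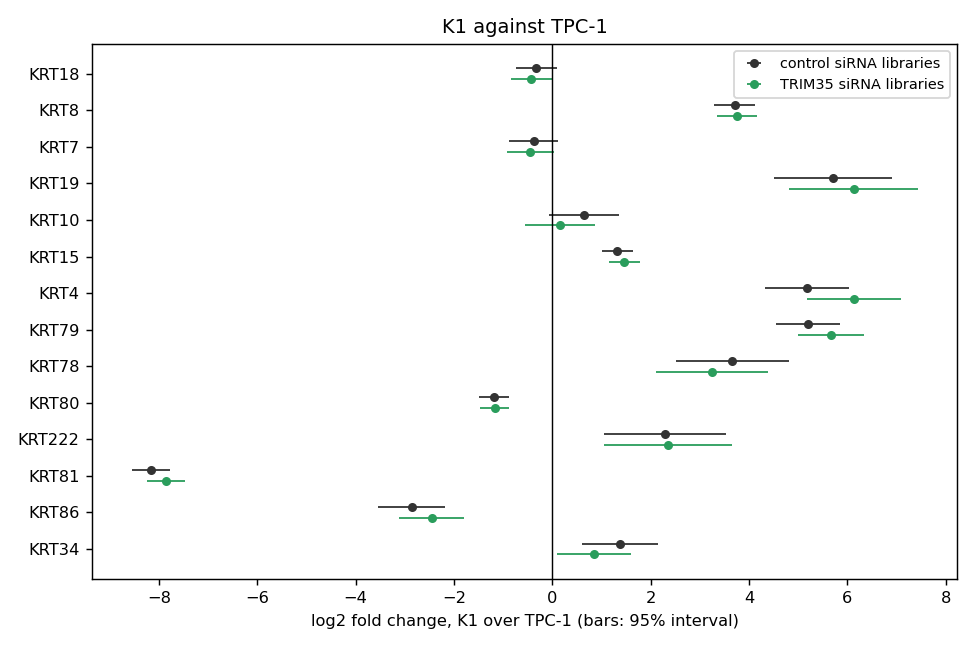
Log2 fold change of K1 over TPC-1 for the 14 tested keratins, with 95% intervals, in the control siRNA libraries (dark) and the TRIM35 siRNA libraries (green). KRT81 lies at -8.16 and -7.86, KRT8 at 3.71 and 3.75, and the intervals of KRT18 in control, KRT7 and KRT10 include 0.

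The balance of the 2 types differed between the lines when KRT81 was included. Summed type I level was 44.6 to 54.2 FPKM in TPC-1 control and 45.4 to 67.8 FPKM in K1 control libraries, which overlap. Summed type II level was 193 to 218 FPKM and 44.6 to 48.6 FPKM, which do not. The ratio of type I to type II was therefore 0.248 ± 0.0303 in TPC-1 control and 1.20 ± 0.189 in K1 control libraries (SD, n = 3, a description with no test), and 0.248 ± 0.0529 and 1.07 ± 0.235 with siRNA. On principal transcript lengths the control ratios were 0.429 and 0.821, and on counts 0.361 and 0.707, so K1 stayed above TPC-1 but fell below 1. The type II sum in TPC-1 is mainly KRT81. This gene alone made up 72.5% to 75.9% of the summed keratin level in TPC-1 control libraries, against 0.662% to 0.689% in K1 control. At the FPKM values given above, the other type II keratins of the TPC-1 control libraries summed to less than type I. The K1 sums hardly depend on KRT81. Without KRT81 the order of the control groups is therefore reversed, with the TPC-1 ratio above that of K1, although its value was not computed. The ratios printed here do not describe the type II keratins as a set.

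Along the chromosomes, only type II genes at the ends of their cluster had enough counts to be tested, so calls could fall only there. The 27 keratins on chromosome 12 span 783.9 kb. Counted from the KRT80 end, the genes at positions 1, 3 and 4 (KRT80, KRT86 and KRT81) were lower in K1, and the 4 consecutive genes at positions 23 to 26 (KRT4, KRT79, KRT78 and KRT8) were higher in K1. The 18 genes between them, positions 5 to 22, were too low to test, with a highest group mean of 0.283 FPKM and 9 genes at 0 counts. KRT7 at position 2 and KRT18 at position 27 were not called. On chromosome 17, where 28 keratins span 970.2 kb, the 4 called genes (KRT222, KRT34, KRT15 and KRT19) were all higher in K1 and only KRT15 and KRT19 are adjacent. The nearest tested genes outside the chromosome 12 cluster, ATG101 (log2 fold change 0.31, SE 0.19) and EIF4B (-0.16, SE 0.16), did not pass the edgeR test in control libraries (adjusted p = 0.154 and 0.396). Of the 10 nearest tested genes, 5 on each side, 5 were called, against 67.9% of all tested genes, so this count is no result about the region. TNS2 (-3.27, SE 0.16), TAMALIN (-2.94, SE 0.56) and ACVR1B (-0.63, SE 0.16) were lower in K1, and NR4A1 (0.68, SE 0.15) and SPRYD3 (0.62, SE 0.17) were higher. In the siRNA libraries TAMALIN was at -4.76. Of the 10 tested genes flanking the chromosome 17 keratins, 6 were called. Within the cluster, the noncoding gene LINC00592, whose span overlaps that of KRT80 on the opposite strand with 0 shared exonic bases, was higher in K1, whereas KRT80 was lower. Its log2 fold change was 5.35 (SE 0.88) in control and 3.10 in siRNA libraries, so its size is uncertain. The other tested non-keratin gene within the cluster, ENSG00000257389, lies between KRT79 and KRT78 and was higher in K1 (5.63, SE 0.70), as they were. These genes were named after their values were seen.

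**Figure D4:**
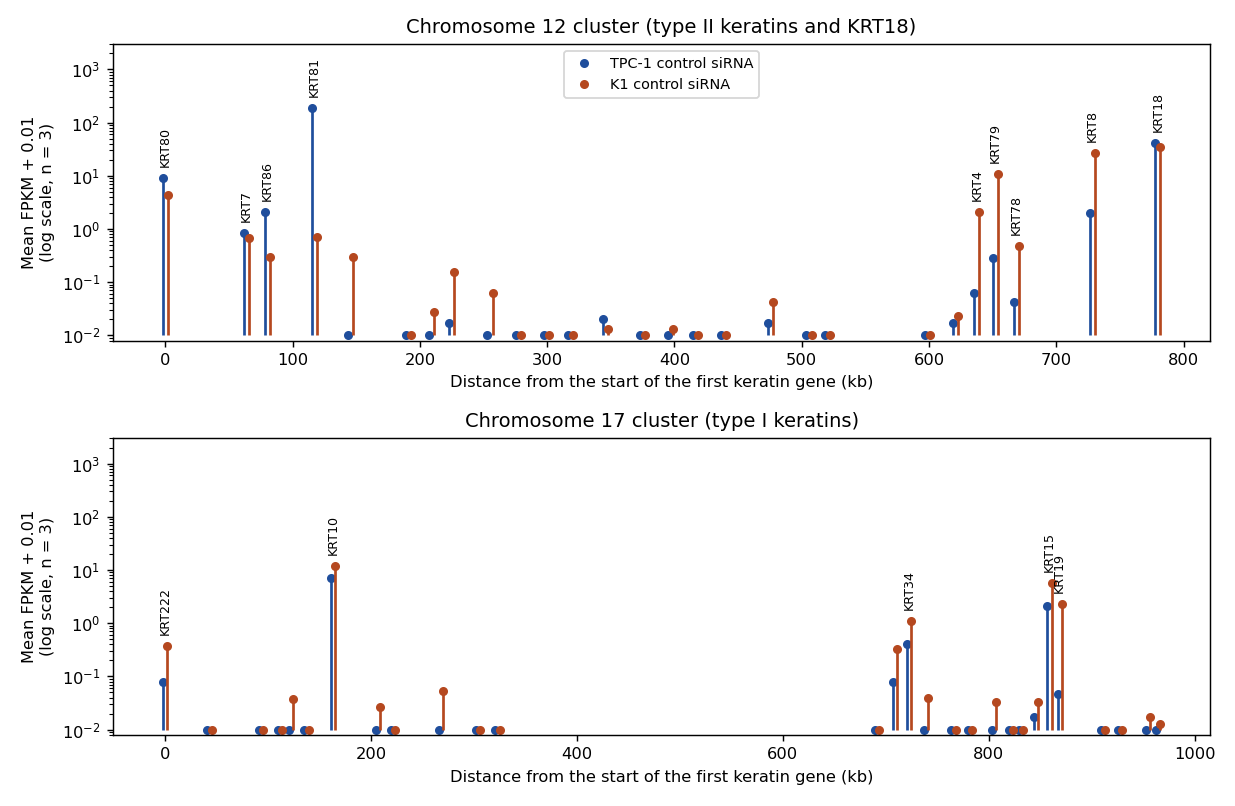
Mean FPKM + 0.01 (log axis, n = 3) of each keratin in TPC-1 control and K1 control libraries against its distance in kb from the first keratin of its cluster. On chromosome 12 the TPC-1 stems are taller near the left end (KRT80, KRT86, KRT81), the K1 stems are taller from KRT4 to KRT8, and the middle stays at or below 0.283 FPKM.

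Promoter sequence was available in the RefSeq table (GRCh38.p14) for 34 of the 55 keratins and for 5 of the 12 that reached 1 FPKM. The 250 bases before the annotated start are shown for the adjacent pair KRT4 and KRT79, which were higher in K1 together, and for KRT34; all 3 genes are on the minus strand, and capitals mark matches to the motifs searched.
KRT4 (chr12:52814117-52814366, minus strand): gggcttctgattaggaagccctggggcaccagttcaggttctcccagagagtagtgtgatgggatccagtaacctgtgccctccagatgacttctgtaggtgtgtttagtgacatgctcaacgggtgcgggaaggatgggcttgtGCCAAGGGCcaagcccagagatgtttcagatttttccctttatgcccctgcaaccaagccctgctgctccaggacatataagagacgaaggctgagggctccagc
KRT79 (chr12:52834312-52834561, minus strand): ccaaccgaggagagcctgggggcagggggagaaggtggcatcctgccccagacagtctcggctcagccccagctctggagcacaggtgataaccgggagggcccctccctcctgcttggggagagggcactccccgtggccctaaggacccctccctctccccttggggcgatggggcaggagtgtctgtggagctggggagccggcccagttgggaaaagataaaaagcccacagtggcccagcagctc
KRT34 (chr17:41382307-41382556, minus strand): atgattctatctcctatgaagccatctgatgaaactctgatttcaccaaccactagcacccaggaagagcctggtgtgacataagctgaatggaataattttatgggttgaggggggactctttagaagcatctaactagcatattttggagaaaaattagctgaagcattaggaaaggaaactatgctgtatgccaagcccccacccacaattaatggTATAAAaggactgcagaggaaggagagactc
Both strands were searched for TATAAA (the TATA box), TGANTCA (AP-1), GGGCGG (a GC box) and GCCNNNGGC (AP-2), none of which overlapped in these 3 windows. KRT34 held TATAAA at position -31 and KRT4 held GCCNNNGGC at position -105, counted from the start site, and KRT79 held none of the 4. TATAAA occurred in 20 of the 34 keratin promoters (58.8%), against 10.7% of 35116 promoters of the same length. Exact matches anywhere in the 250 bases were counted, such as those at -191 in KRT82 and -228 in KRT84. A match therefore does not by itself mark a TATA box, and its lack does not exclude a variant of one. GGGCGG occurred in 4 (11.8%, against 42.6%), GCCNNNGGC in 5 (14.7%, against 19.8%) and TGANTCA in 0 (against 6.57%). The median keratin promoter had 2 CpG sites and 44.6% GC, against 11 CpG sites and 58.0% GC over all promoters. Of the 5 promoters of expressed keratins 2 held TATAAA, and of the 29 others 18 did.

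No keratin response to TRIM35 siRNA was detected with 3 libraries a group. None of the 14 tested keratins was called by edgeR in TPC-1 or in K1, where 0% of all tested genes were called in either line, and none reached an unadjusted p of 0.05. DESeq2's Wald test and limma also called 0 keratins in both lines; limma on log2(FPKM + 0.1) gave 1 keratin, KRT81 in K1, an unadjusted p of 0.0401 (adjusted p = 1). In TPC-1, KRT81 differed by a log2 fold change of 0.01 (95% interval -0.26 to 0.28), KRT80 by -0.03 (-0.32 to 0.26) and KRT18 by -0.06 (-0.47 to 0.36). In K1, KRT8 differed by -0.05 (-0.41 to 0.31), KRT15 by -0.04 (-0.34 to 0.27) and KRT18 by -0.16 (-0.58 to 0.25). The adjusted p was 1 for each of them.

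KRT7 had the lowest unadjusted p of the 14 in TPC-1. Its siRNA values of 1.04 to 1.19 FPKM in TPC-1 lay above the control values of 0.74 to 0.95 FPKM, and in K1 they lay at 0.81 to 1.01 FPKM against 0.49 to 0.80 FPKM. The groups did not overlap in either line. The log2 fold changes of 0.42 (95% interval -0.06 to 0.90) in TPC-1 and 0.35 (-0.14 to 0.84) in K1 did not pass the edgeR test (adjusted p = 1 in both). KRT34 in K1 did not overlap either, with its siRNA values below its control values. The share of all genes whose groups did not overlap was not computed. The widest intervals belonged to genes with few counts in TPC-1, such as KRT19 (-3.19 to 1.55) and KRT4 (-2.72 to 0.53). For the difference of the siRNA effects between lines, K1 minus TPC-1, 0 of 14 keratins were called (background 0%) and none reached an unadjusted p of 0.05 in this fit. Without a filter on low counts KRT10 had an unadjusted p of 0.0371 for this difference (-0.51, 95% interval -0.99 to -0.03, edgeR adjusted p = 1.00). That difference was 0.31 for KRT81 (-0.20 to 0.82), 0.04 for KRT8 (-0.49 to 0.58) and -0.10 for KRT18 (-0.69 to 0.48).

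**Figure D5:**
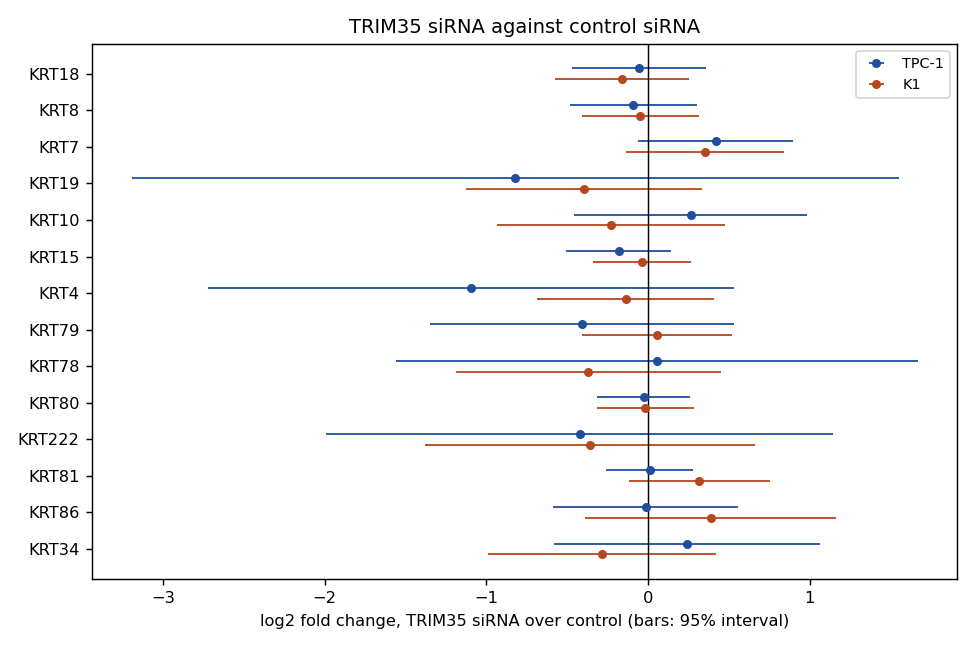
Log2 fold change of TRIM35 siRNA over control siRNA for the 14 tested keratins, with 95% intervals, in TPC-1 (blue) and K1 (red). Every interval includes 0, and the widest in TPC-1 are those of KRT19, KRT4, KRT78 and KRT222.

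Within K1, several keratins were high and low in the same libraries. In the control group KRT18, KRT8, KRT10 and KRT19 were all highest in the first library and lowest in the third, and in the siRNA group all 4 were highest in the third and lowest in the first. KRT79 ran the other way: it was lowest where these 4 were highest (8.08 FPKM in the first control and 7.34 FPKM in the third siRNA library) and highest where they were lowest (13.0 and 13.7 FPKM). The number of genes with a count was lowest in those same libraries of each K1 group (26548 in the first control and 25015 in the third siRNA library); its part in the pattern was not tested. In TPC-1, KRT10 was highest in the first and lowest in the third library of both groups, whereas KRT8 was lowest in the first library of both. KRT4 was highest in the first and lowest in the third library of both K1 groups. Over all tested genes, deviations from the group mean correlated at 0.577 between the first K1 control and the third K1 siRNA library. They correlated at 0.453 between the third K1 control and the first K1 siRNA library, so the pattern of these libraries was not confined to keratins. With 3 libraries a group no correlation was computed for single keratins.

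Genes that anchor keratin filaments were called in both directions, and their counts are to be read against the 35.8% of all tested genes that were higher and the 32.1% that were lower in K1 control libraries. Desmoplakin, DSP, which ties keratins to desmosomes, was at 0.0167 ± 0.0115 FPKM in TPC-1 control and 4.24 ± 0.575 FPKM in K1 control libraries (log2 fold change 7.75, SE 0.28, edgeR adjusted p = 1.62e-12). Of 9 tested of 14 listed, 2 were higher and 6 lower in K1 (median -0.65, against 0.06 over all tested genes), among those lower the desmosomal cadherins DSC2 (-3.09, SE 0.15) and DSG2 (-0.86, SE 0.14) and plakophilin PKP3 (-1.23, SE 0.19). Of 8 tested hemidesmosome genes 2 were higher and 4 lower (median -0.70). The laminin chain gene LAMA3 (2.92, SE 0.23) was higher, and collagen XVII, COL17A1 (-1.90, SE 0.19), and integrin ITGA6 (-1.38, SE 0.17) were lower.

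Among 7 tested keratin-binding and filament-linking genes 2 were higher and 2 lower (median -0.05). The plakins PLEC (-1.18, SE 0.17) and DST (-1.08, SE 0.23) were lower in K1, and TCHP, which encodes the keratin-binding protein trichoplein, was at 0.10 (SE 0.12) and not called. Of 10 tested other intermediate filament genes 5 were higher and 3 lower (median 0.62). The lamins LMNB1 (-1.69, SE 0.16), LMNB2 (-1.23, SE 0.13) and LMNA (-0.98, SE 0.16) were lower, and BFSP1, a lens filament gene, was higher (0.99, SE 0.24). Vimentin, VIM, held most of the summed level of this list and was higher in K1 (0.93, SE 0.30). It measured 412 to 825 FPKM in TPC-1 control and 942 to 1404 FPKM in K1 control libraries. Of 24 cornified envelope genes listed and measured, 4 were tested, with filaggrin, FLG, lower (-5.95, SE 0.32) and cystatin A, CSTA, higher in K1 (5.72, SE 0.48).

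Epithelial regulators and surface genes were likewise called in both directions, at shares to be set beside the 67.9% of all tested genes called. Of 10 tested epithelial transcription and splicing factors 5 were higher and 3 lower in K1 (median 0.48): TFAP2A (-1.85, SE 0.13) and GRHL1 (-3.14, SE 0.40) were lower, and TFAP2C (0.64, SE 0.13) and ELF3 (1.28, SE 0.27) were higher. Of 7 tested epithelial surface genes 5 were higher and 2 lower (median 3.47). SPINT1, a membrane serine protease inhibitor gene, had 294 counts in K1 control and 3 in TPC-1 control libraries, a ratio of 86.2 (95% counting interval 29.2 to 420.5), and the mucin gene MUC1 was lower (-1.11, SE 0.31). In the siRNA comparisons and their difference edgeR called 0 genes of these lists, and at most 1 gene per list had an unadjusted p under 0.05.

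Markers of other cell types were also measured, and their counts stand beside a share of 35.8% of all tested genes higher and 32.1% lower in K1. Of 10 fibroblast markers 7 were tested, 5 higher and 1 lower (summed level 1.88 to 2.23 FPKM in TPC-1 control and 10.95 to 11.64 FPKM in K1 control libraries), among them THY1 (log2 fold change 6.26, SE 0.26) and FAP (1104 counts against 1, a ratio of 971, 95% counting interval 174 to 38400), while COL3A1 and POSTN had 11 counts each in K1 control. Of 8 endothelial markers 5 were tested, 3 higher and 1 lower (0.26 to 0.55 and 3.07 to 3.31 FPKM), among them KDR (5.36, SE 0.39), while CLDN5 had 0 counts, CDH5 1 count and VWF 3 counts in K1 control. Of 10 leukocyte markers 4 were tested, 3 higher and 0 lower (0.82 to 0.93 and 5.43 to 6.71 FPKM), among them CD14 (5.49, SE 0.36), while CD3E and MS4A1 had 0 counts in K1 control. The part of these genes in the keratin differences was not tested. Of 8 thyroid markers 4 were tested, with 3 higher and 1 lower in K1 (median 2.73; summed level 24.78 to 28.4 and 122.77 to 136.48 FPKM), among them PAX8 (2.46, SE 0.12), FOXE1 (3.01, SE 0.15) and HHEX (-0.71, SE 0.24).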

How the data were processed

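RNA-seq of the 12 libraries was processed by the authors. Cutadapt 1.9.1 and build hg38 are named, per the submitters' processing notes; for the aligner, counting tool, annotation release and strandedness the sources used here give no name. The authors deposited raw read counts per gene, whole numbers summing to 16705044 to 22928861 per library. The authors also deposited FPKM values, which equal the count divided by the exonic size and by the summed counts. The labels name 1 batch for all libraries.

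For testing, edgeR 4.0.16 (R 4.3.3) was used: filterByExpr kept 17447 genes, libraries were scaled by TMM, and the quasi-likelihood fit had a mean for each group, all 12 libraries and 8 residual degrees of freedom. Calls needed an adjusted p (Benjamini-Hochberg, over all tested genes) under 0.05, and intervals are at 95%. The script was tested on simulated data. Fold changes are on counts and levels are FPKM. Genes with 3 counts or fewer in a group are given as count ratios scaled by library totals, with exact Clopper-Pearson intervals. Where a group had 0 counts, the ratio against 3 counts is given. It takes the other count as exact and is not a 95% limit. The 9 alternatives were DESeq2 1.42.0 size factors and its Wald test, limma 3.58.1 on log2(FPKM + 0.1) and log2(FPKM + 1), no filter and a stricter filter, the contrast's groups alone, a replicate block and pseudogene counts added to the parent, besides leaving out each of the 12 libraries; other lengths for level ratios were added after the data were seen.

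Named were keratins with a mean of at least 1 FPKM in a group or called, TRIM35, and up to 4 genes per list by adjusted p of the control line comparison, with a mean of at least 1 FPKM in a control group; other genes named were chosen after their values were seen. The keratins, lists and rules were chosen with earlier results of these data known. Gene models came from GENCODE 29, which held all 55 keratins, 18 with the deposited start and end. Promoters came from RefSeq (GRCh38.p14). Some genes that this rule would name, and some sequences, are not reported here.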

Additional observations from a re-analysis of the deposited data

Results flagged for a closer look

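Reads also fell on rows outside the 55 keratins that are related to them by sequence or position, given here as values. The 51 KRT8 pseudogene rows held 1693 counts over the 12 libraries, 21 of them with a count, and KRT8P12 alone held 1284. KRT8P12 had 232 counts in TPC-1 control and 390 in K1 control libraries, while KRT8 itself differed by a log2 fold change of 3.71. The 67 KRT18 pseudogene rows held 207 counts, 24 of them with a count. KRT10-AS1, which runs antisense to KRT10, held 4396 counts and was higher in K1 control libraries (log2 fold change 1.03, SE 0.15, edgeR adjusted p = 2e-05), where KRT10 was not called. The 94 rows of keratin-associated proteins, which form the matrix between hair keratins, held 393 counts, 41 in TPC-1 and 352 in K1, 16 rows having a count. KRTAP1-5 had 0 counts in TPC-1 and 175 in K1, KRTAP2-3 had 31 and 87, and KRTAP4-8 had 0 and 44, low counts in both lines beside the 43016 counts of KRT81 in TPC-1. Groups had 3 libraries and were not searched for single deviating libraries.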

How the results depend on the processing

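Over 21 alternatives the number of keratins called in the control line comparison lay between 9 and 16 and in the siRNA libraries between 9 and 15; leaving out 1 library gave 12 to 14 and 10 to 13. In the siRNA comparisons of both lines (21 alternatives) and their difference (20) it was 0 throughout. A replicate block gave 11 and 10 calls. Same-numbered libraries correlated between -0.526 and 0.406 (over 0.1 in 4 of 18 pairs), and the numbers were not taken to pair libraries. Between the TPC-1 groups the same-numbered correlations were 0.379, 0.0857 and 0.406 and each library correlated best with its own number, a hint from the data and not from the design; between the K1 groups they were -0.491, 0.0864 and -0.526. No called value changed sign; uncalled values changed sign in 2, 18, 17 and 30 instances (siRNA-library line comparison, TPC-1, K1 and their difference). Among the 14 tested keratins, calls changed for KRT34, KRT10 and KRT18 only, as given above, in the alternatives that tested them. KRT78 and KRT222 were not tested by either limma fit, each of which tested 12 keratins and called 9 in each line comparison. Without a filter 36 keratins were tested and 16 called in the control comparison.

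In the order TPC-1 control, TPC-1 siRNA, K1 control and K1 siRNA, the type I to type II ratio was 0.4293, 0.4226, 0.8211 and 0.7433 on principal transcript length and 0.3607, 0.3560, 0.7070 and 0.6493 on counts. The KRT8 to KRT18 ratio was 0.0789, 0.0769, 1.2936 and 1.4039 on principal transcript length and 0.1074, 0.1047, 1.7607 and 1.9109 on counts, and 0.0666 and 0.0693 in TPC-1 with pseudogene counts added. These shifts follow from the lengths and counts used. Depth limits the 41 untested keratins and the TPC-1 values of KRT19, KRT4, KRT78 and KRT222.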
